A study of Bos taurus with 9 samples.

Results

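The genes described here make, take up and export cholesterol: 30 gene symbols covering the enzymes of cholesterol synthesis, the proteins that sense sterols, and the main uptake and efflux proteins. Of these, 29 were found by symbol among the 24596 genes of the deposited expression table, and the one other, FDPS, was not analysed here. The members are the enzymes from acetyl-CoA to farnesyl and geranylgeranyl diphosphate (ACAT2, HMGCS1, MVK, PMVK, MVD, IDI1, GGPS1), the enzymes from squalene to cholesterol (FDFT1, SQLE, LSS, CYP51A1, TM7SF2, MSMO1, NSDHL, HSD17B7, EBP, SC5D, DHCR7), the regulators (SREBF1, SREBF2, SCAP, INSIG1, INSIG2, NR1H2) and the transport proteins (STARD4, SCARB1, LRP1, ABCA1, ABCG1).

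The cells were primary bovine endometrial epithelial cells (BEEC), and their RNA was read in 9 libraries. The groups are HIGHGLUC, LOWAA and control, with 3 libraries each, and the names give the regime in which the embryos had been kept before co-culture, without concentrations. In all groups, control included, the BEEC received groups of 5 morulae at day 4 of embryo age and were collected with them at day 8, so no group lacked embryos. The cells came from 3 uteri of the early luteal stage and were grown in medium with 10% fetal bovine serum, and each library pooled 3 wells. The labels do not tie a library to a uterus, so p-values measure the spread between these libraries, which may be technical. The library numbers fall into 3 runs of consecutive numbers, each with 1 library of every group: run 1 holds HIGHGLUC replicate 6, LOWAA replicate 8 and control replicate 5; run 2 holds HIGHGLUC 10, LOWAA 12 and control 9; run 3 holds HIGHGLUC 14, LOWAA 15 and control 13. What the numbers stand for is not given in the labels.

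Cells make cholesterol from acetyl-CoA through mevalonate, squalene and lanosterol. When membranes of the endoplasmic reticulum are low in sterol, SCAP carries the SREBP proteins, products of SREBF1 and SREBF2, to the Golgi, where they are cut and released to switch on synthesis and uptake genes. INSIG1 and INSIG2 hold SCAP back when sterol is plentiful, and INSIG1 is itself an SREBP target. In the opposite state, oxysterols activate the liver X receptors, one of them encoded by NR1H2, which induce the efflux transporters ABCA1 and ABCG1. In the uterus, luminal and glandular epithelial cells supply lipids to the early embryo. Serum carries lipoprotein cholesterol, so cells in serum have both a supply of their own and one from outside.

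Depth, as total exon reads, was lowest in control replicate 5 with 2887097 reads and highest in control replicate 9 with 13969325. A count of 0 therefore allows up to 1.04 CPM (exon reads scaled to a common library total) in the shallowest library and 0.215 CPM in the deepest, for counting error only. Of the 7 epithelial markers 5 were well read, with KRT8 at 4444 CPM on average, whereas EPCAM reached 13 reads over the 9 libraries and no read fell on CLDN7. Fibroblast markers were as abundant, with COL3A1 at 5085 CPM on average, so the label of epithelial cells stands beside a stromal signal of the same order. The 7 fibroblast markers summed to 10537 to 12760 CPM in HIGHGLUC, 11148 to 13096 in LOWAA and 10824 to 13146 in control libraries, and their part in the results was not tested. Fewer cells of a type and less RNA per cell cannot be told apart in these bulk samples.

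All 29 genes were read in every library and passed the filter on low counts that left 11839 genes for testing. Their reads were unique alignments except for 1 read of ACAT2. Levels between genes are given as the deposited RPKM, reads per kilobase of exon scaled to library size. Among the enzymes, MSMO1, the methyl sterol oxidase, had the highest mean level, 165.5 ± 27.0 RPKM (SD, n = 9), and PMVK, phosphomevalonate kinase, the lowest, 4.97 ± 0.88. HMGCS1, which makes HMG-CoA, averaged 70.3 ± 15.2 RPKM, FDFT1, squalene synthase, 63.9 ± 7.81, and SQLE, squalene epoxidase, 49.2 ± 8.47 (SD, n = 9). The other 13 enzymes lay between 10.1 ± 0.71 RPKM for TM7SF2, a sterol reductase, and 48.7 ± 6.74 RPKM for CYP51A1, with DHCR7, which carries out the last step of one branch, at 31.2 ± 2.16 (SD, n = 9). Synthesis enzymes were thus spread over more than one order of magnitude in level while all were expressed.

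Among the regulators, SREBF2 averaged 46.2 ± 5.03 RPKM and SREBF1 19.2 ± 2.08, and INSIG2 averaged 44.9 ± 3.73 against 25.7 ± 6.30 for INSIG1 (SD, n = 9). Coefficients of variation are given for CPM, not RPKM. In CPM, INSIG2 was the steadiest of the 29, at 6.87% over the 9 libraries, while INSIG1 was at 24.7%. Among the transport genes, LRP1, an endocytic receptor for lipoprotein remnants and many other ligands, had 132.8 ± 14.6 RPKM, and SCARB1, the receptor for high-density lipoprotein, 20.0 ± 2.28. The efflux transporters were at the bottom of the range and varied most. ABCA1 averaged 2.51 ± 1.21 RPKM, with a coefficient of variation of 47.5% in CPM. For ABCG1 these were 1.54 ± 1.04 RPKM and 65.7% in CPM.

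**Figure D1:**
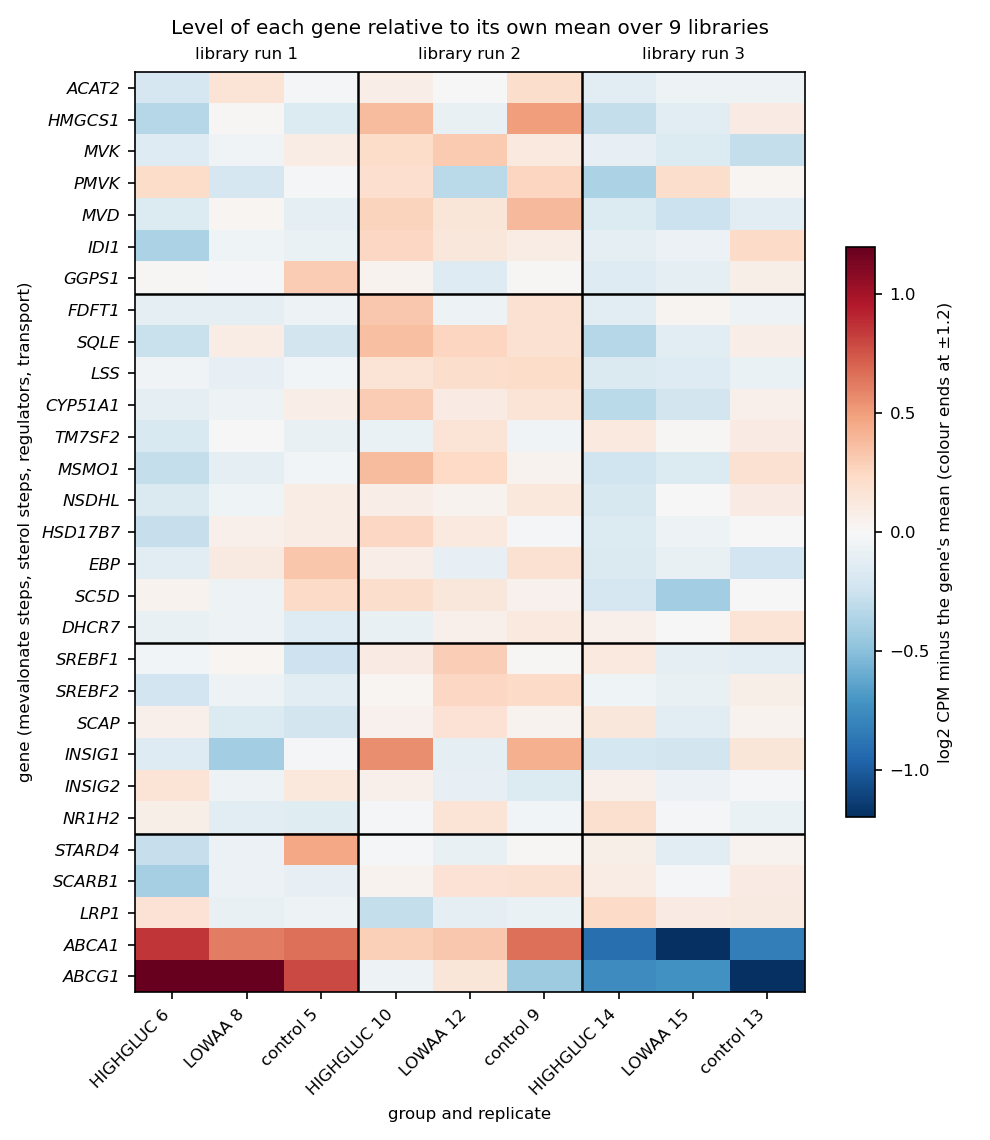
Level of each of the 29 genes in each library, as log2 CPM (scaled, with a prior count of 2) minus the gene's mean over the 9 libraries, with red above and blue below the mean. Columns are libraries, ordered by library run and within it as HIGHGLUC, LOWAA and control, and lines separate roles. The colour changes by run for ABCA1 and ABCG1, in all 3 groups, and most synthesis enzymes are red in run 2.

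The clearest differences among these genes lay between library runs. ABCA1, which loads cholesterol onto lipid-poor apolipoproteins (chromosome 8, 96274034 to 96390357, bovine build UMD3.1), had 31.8, 22.1 and 9.38 CPM in HIGHGLUC replicates 6, 10 and 14. It had 26.9, 22.9 and 5.41 CPM in LOWAA replicates 8, 12 and 15, and 27.7, 28.8 and 9.87 CPM in control replicates 5, 9 and 13. In each group the library of run 3 was the lowest, and the 3 libraries of run 3 did not overlap the other 6. Fitted beside group, ABCA1 differed by -0.31 log2 in run 2 and by -1.88 log2 in run 3 relative to run 1, with an adjusted p of 6.37e-07 for the 2 run terms together (edgeR's quasi-likelihood F test, Benjamini-Hochberg over all tested genes).

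ABCG1, the transporter that passes cholesterol to mature high-density lipoprotein (chromosome 1, 143990493 to 144053318), had 8.75, 3.46 and 2.02 CPM in HIGHGLUC, 8.46, 4.06 and 2.05 CPM in LOWAA and 6.23, 2.65 and 1.16 CPM in control libraries, in the same order of replicates. In each group run 1 was highest and run 3 lowest, and the 3 runs did not overlap. The counts behind these levels were small, with 14 reads in HIGHGLUC replicate 14, 19 in LOWAA replicate 15 and 12 in control replicate 13. Relative to run 1, ABCG1 differed by -1.24 log2 in run 2 and -2.18 log2 in run 3 (edgeR adjusted p = 2.81e-05).

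With the same F test 9 of the 29 members differed among runs at an adjusted p under 0.05, the threshold for what is named called here, beside 10.2% of all tested genes. Besides ABCA1 and ABCG1 these were MVD, LSS, CYP51A1, SC5D, SREBF2, INSIG1 and LRP1. INSIG1 was 0.50 log2 higher in run 2 and 0.11 log2 higher in run 3 than in run 1 (edgeR adjusted p = 0.00671). LSS, which closes the sterol ring system by making lanosterol, differed by 0.26 and -0.08 log2 in runs 2 and 3 relative to run 1 (edgeR adjusted p = 0.00913). MVD, the decarboxylase at the end of the mevalonate steps, differed by 0.34 and -0.11 log2 (edgeR adjusted p = 0.0134), and SREBF2 by 0.31 and 0.12 log2 (edgeR adjusted p = 0.0257). CYP51A1, the lanosterol demethylase, differed by 0.22 and -0.12 log2 (edgeR adjusted p = 0.0280) and SC5D, a late desaturase, by 0.07 and -0.27 log2 (edgeR adjusted p = 0.0474). LRP1 went the other way, at -0.16 log2 in run 2 and 0.13 log2 in run 3 (edgeR adjusted p = 0.0479).

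As a group the 18 synthesis enzymes stood highest in run 2, although only 4 of them passed the test. Their fitted level was higher in run 2 than in run 1 for 16 of 18, with a median difference of 0.19 log2 against -0.00 for all tested genes, and higher in run 2 than in run 3 for 16 of 18. The number of the 18 above their own median over the 9 libraries was 1, 16 and 2 in HIGHGLUC replicates 6, 10 and 14. It was 6, 12 and 3 in LOWAA replicates 8, 12 and 15, and 8, 16 and 8 in control replicates 5, 9 and 13. The run 2 library had the most in every group. SQLE did not pass the test in this fit (edgeR adjusted p = 0.0508), nor did HMGCS1, with run differences of 0.43 and 0.05 log2 (edgeR adjusted p = 0.237).

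HMGCS1 had 125, 213 and 133 CPM in HIGHGLUC, 161, 156 and 148 CPM in LOWAA and 142, 234 and 173 CPM in control libraries (replicates in the order of runs 1, 2 and 3). The run 2 library was the highest in HIGHGLUC and control, and the 3 LOWAA libraries lay close together. SQLE, which inserts the oxygen into squalene, had 94.0, 150 and 90.9 CPM in HIGHGLUC, 121, 141 and 105 CPM in LOWAA and 97.3, 133 and 122 CPM in control libraries, with the run 2 library highest in every group. SREBF2 had 147, 182 and 171 CPM in HIGHGLUC, 167, 216 and 165 CPM in LOWAA and 159, 211 and 185 CPM in control libraries, again highest in run 2 in every group.

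The call for ABCA1 and for ABCG1 held in each of the 15 alternatives run for this test, which included leaving out each library in turn. The other calls depended on single libraries. Without HIGHGLUC replicate 10 only 5 members were called (MVD, LSS, SREBF2, ABCA1 and ABCG1), so INSIG1, CYP51A1, SC5D and LRP1 were lost. INSIG1 was called without each of the other 8 libraries, MVD was lost without control replicate 9, and LSS was lost without LOWAA replicate 12. SREBF2 and CYP51A1 were each lost in 5 of the 9 fits that left out a library, and SC5D and LRP1 each in 7 of them. The call for LRP1 was also lost under DESeq2's size factors, with no scaling and with DESeq2's own test, and that for SC5D with DESeq2's own test and with limma-voom. Counting unique exon reads, 12 members were called, beside 12.2% of all tested genes, with MVK, SQLE and SCARB1 added. Several measures also moved with run: unique reads made up 94.6 to 95.0% of exon reads in run 1, 94.8 to 95.9% in run 2 and 96.0 to 96.2% in run 3. Intron reads made up 7.05 to 8.07% in run 1, 8.91 to 13.7% in run 2 and 8.98 to 10.3% in run 3. The 7 fibroblast markers summed to 10537 to 11148 CPM in run 1, 12094 to 13096 in run 2 and 11411 to 13146 in run 3, and the 7 epithelial markers to 8333 to 8926, 7876 to 8927 and 7839 to 8172 CPM. The other lists were small in every run: smooth muscle 300.1 to 516.0 CPM, leukocyte 11.4 to 17.3 CPM with PTPRC and CD3E at 0, and endothelial 0.799 to 2.77 CPM with CDH5 at 0. The 2 embryo markers in the table summed to at most 0.346 CPM, with SOX2 at 0. Their part in the run differences was not tested.

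**Figure D2:**
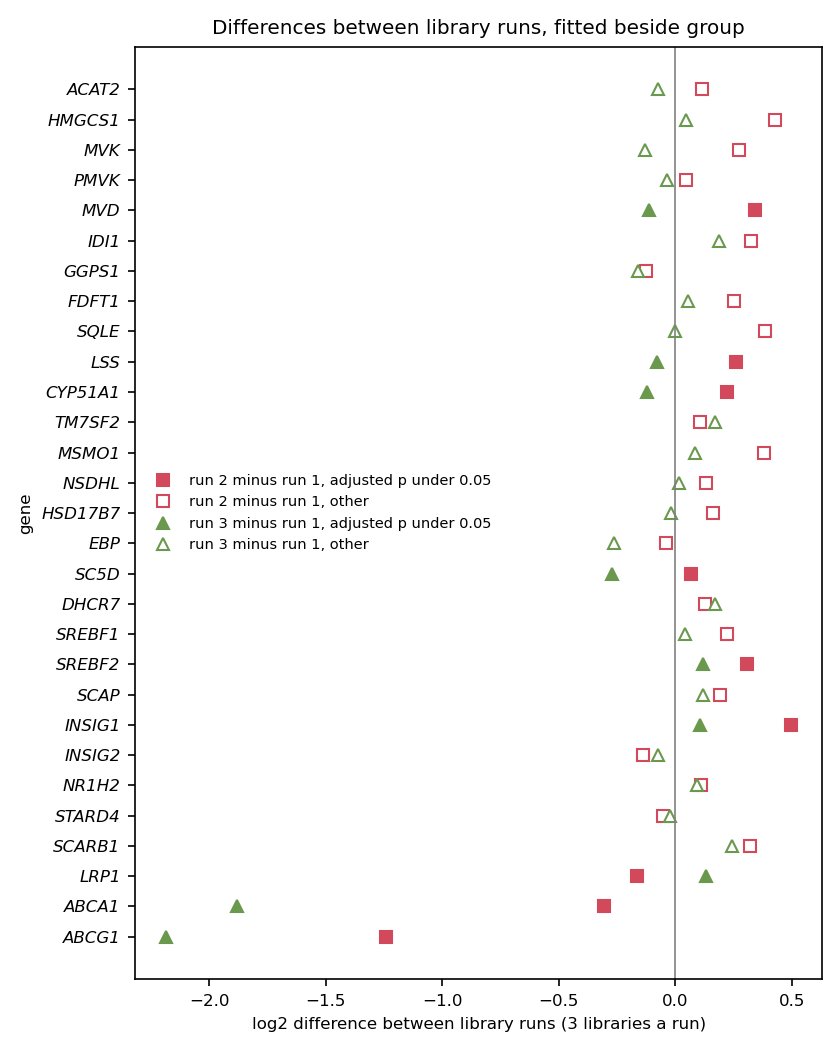
Fitted log2 difference of each gene in run 2 (squares) and run 3 (triangles) relative to run 1, 3 libraries a run, with filled symbols for the 9 genes with an adjusted p under 0.05. ABCG1 lies at -1.24 and -2.18 and ABCA1 at -0.31 and -1.88, while INSIG1 lies at 0.50 and 0.11.

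The first group comparison asked whether BEEC differed after co-culture with embryos from the HIGHGLUC regime. No member was called in HIGHGLUC against control libraries (0 of 29 at an adjusted p under 0.05, edgeR's quasi-likelihood test), beside 0.00% of all tested genes. Most synthesis enzymes had slightly lower values in HIGHGLUC: 16 of 18 lower, with a median of -0.09 log2, and 21 of all 29 members lower with a median of -0.08 log2, where 50.0% of all tested genes were lower with a median of -0.00 log2. The fold changes of the 18 enzymes ran from -0.22 to 0.02 log2. Of the 6 regulators 4 were higher and 2 lower, with 0 at an unadjusted p under 0.05. The comparison shares its control libraries with the LOWAA one.

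At an unadjusted p under 0.05 there was 1 member, NSDHL, beside 2.98% of all tested genes. NSDHL, a dehydrogenase that takes part in removing the C4 methyl groups (chromosome X, 35387261 to 35413263), had 59.6, 73.6 and 60.1 CPM in HIGHGLUC replicates 6, 10 and 14, against 71.7, 76.4 and 73.4 CPM in control replicates 5, 9 and 13. The HIGHGLUC libraries were lower in every run, and after scaling by TMM the groups just failed to overlap, while in plain CPM HIGHGLUC replicate 10 lay above control replicate 5. The log2 fold change was -0.20 ± 0.09 (SE), with an edgeR adjusted p of 1.00.

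The next smallest p-values belonged to NR1H2, SREBF1 and STARD4. NR1H2, which encodes liver X receptor beta, had 70.9, 69.2 and 78.7 CPM in HIGHGLUC against 61.3, 68.4 and 65.05 CPM in control libraries, without overlap, and differed by 0.17 ± 0.09 log2 (SE, edgeR adjusted p = 1.00). SREBF1, whose product acts mainly on fatty acid genes, had 80.1, 91.0 and 90.8 CPM in HIGHGLUC against 69.3, 86.1 and 76.2 CPM in control libraries, with overlap, and differed by 0.17 ± 0.11 log2 (SE, edgeR adjusted p = 1.00). The row named STARD4, a soluble sterol carrier, had 11.1, 13.7 and 14.4 CPM in HIGHGLUC against 18.7, 14.2 and 14.1 CPM in control libraries and differed by -0.23 ± 0.15 log2 (SE, edgeR adjusted p = 1.00). That row lies on chromosome 10 in the table and on another chromosome in RefSeq's annotation, so its identity is uncertain; the other 28 members lie on the same chromosome in both.

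After TMM scaling 1 member (NSDHL) was lower in HIGHGLUC without overlap, beside 3.57% of all tested genes, and 2 (SCAP and NR1H2) were higher without overlap, beside 3.78%. Within runs, 7 members were lower in HIGHGLUC than in the control library of the same run in all 3 runs (ACAT2, HMGCS1, MVD, LSS, NSDHL, SREBF2 and SCARB1), a share of 24.1% of the members, beside 13.2% of all tested genes. Another 5 were higher in all 3 runs (SREBF1, SCAP, INSIG2, NR1H2 and ABCG1), 17.2% of the members, beside 13.5% of all tested genes. With run as a term in the model 3 members had an unadjusted p under 0.05, beside 6.66% of all tested genes: NSDHL at -0.19 ± 0.08, ABCG1 at 0.54 ± 0.25 and SREBF1 at 0.18 ± 0.08 log2 (SE). None was called in that fit, where their edgeR adjusted p-values were 0.686, 0.726 and 0.726 and 0.0253% of all tested genes were called.

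With run as a term and all 9 libraries, 21 of 29 members were lower, with a median of -0.09 log2. In the fit without run, the lean changed when single libraries were left out, which also unbalances the runs. The weight of a library and that of its run cannot be told apart in these fits. Without HIGHGLUC replicate 14 the median of the members was 0.01 log2 with 14 of 29 lower, and without HIGHGLUC replicate 6 it was -0.02. Without control replicate 9 it was also -0.02, and without HIGHGLUC replicate 10 it was -0.20 with 8 members at an unadjusted p under 0.05. In HIGHGLUC replicate 10, as in control replicate 9 of the same run, 16 of the 18 synthesis enzymes stood above their own median.

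The second comparison asked the same of embryos from the LOWAA regime. No member was called in LOWAA against control libraries (0 of 29, edgeR's quasi-likelihood test), beside 0.00% of all tested genes, and none had an unadjusted p under 0.05, beside 4.00%. INSIG1, the sterol-dependent anchor of SCAP, had the largest difference below control, and 21 of 29 members had lower values in LOWAA with a median of -0.06 log2, where 49.1% of all tested genes were lower with a median of 0.00 log2. With run as a term 21 of 29 were lower as well, with a median of -0.06 log2. In the fit without run, this lean, too, changed when single libraries were left out, which also unbalances the runs. There 15 of 29 were lower both without control replicate 9 (median -0.00) and without LOWAA replicate 15 (median -0.02). Without LOWAA replicate 12 it was 23 of 29 (median -0.11), and without control replicate 5 it was 22 of 29 (median -0.11). Of the 18 synthesis enzymes 14 had lower values, with a median of -0.08 log2 and a range from -0.25 to 0.07 log2.

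INSIG1 (chromosome 4, 117906797 to 117920021) had 56.5, 72.7 and 65.2 CPM in LOWAA replicates 8, 12 and 15, against 74.5, 105 and 84.7 CPM in control replicates 5, 9 and 13. Every LOWAA library lay below every control library, and the HIGHGLUC libraries, at 67.4, 115 and 66.3 CPM, spanned nearly the whole range. The mean was 64.8 ± 8.15 CPM in LOWAA and 87.9 ± 15.4 CPM in control libraries (SD, n = 3 each). The log2 fold change was -0.45 ± 0.21 (SE), with an edgeR adjusted p of 1.00. Within runs the LOWAA library was lower than the control library by -0.40 log2 in run 1, -0.53 in run 2 and -0.37 in run 3, so the difference had nearly the same size each time. With run as a term the log2 fold change was -0.43 ± 0.10 (SE, edgeR adjusted p = 0.123).

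With unique exon reads and run as a term INSIG1 was called, at -0.43 log2 and an edgeR adjusted p of 0.0425, and it was the only member called, beside 0.487% of all tested genes. All 6245 reads of INSIG1 were unique, so its own counts were the same in both fits and only those of other genes differed. That call depended on single libraries: leaving out LOWAA replicate 8 gave an edgeR adjusted p of 0.153, LOWAA replicate 12 gave 0.517, control replicate 5 gave 0.164, control replicate 9 gave 0.147 and control replicate 13 gave 0.201. Over the 9 fits that each left out a library, the log2 fold change stayed between -0.53 and -0.32. Leaving out LOWAA replicate 15 or any HIGHGLUC library kept the call.

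INSIG2, which shares the SCAP-binding role, had 53.0, 53.7 and 53.3 CPM in LOWAA against 60.6, 51.0 and 55.9 CPM in control libraries, and differed by -0.06 ± 0.09 log2 (SE, edgeR adjusted p = 1.00). GGPS1, which makes geranylgeranyl diphosphate off the main sterol branch, had 26.5, 25.1 and 25.1 CPM in LOWAA against 33.3, 28.1 and 28.7 CPM in control libraries, without overlap, and differed by -0.22 ± 0.11 log2 (SE, edgeR adjusted p = 1.00). SREBF1 had 83.8, 105 and 77.2 CPM in LOWAA libraries against the control values given above, with overlap, and differed by 0.19 ± 0.11 log2 (SE, edgeR adjusted p = 1.00). The row named STARD4 had 12.9, 13.2 and 12.5 CPM in LOWAA libraries, below all control libraries, and differed by -0.25 ± 0.15 log2 (SE, edgeR adjusted p = 1.00).

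After TMM scaling 4 members were lower in LOWAA without overlap (GGPS1, NSDHL, INSIG1 and STARD4), 13.8% of the members, beside 5.02% of all tested genes, and 0 were higher without overlap, beside 4.69%. In all 3 runs 8 members were lower than the control library of the run (GGPS1, LSS, CYP51A1, NSDHL, INSIG1, STARD4, LRP1 and ABCA1), 27.6% of the members, beside 15.9% of all tested genes. Another 3 were higher in all 3 runs (SREBF1, NR1H2 and ABCG1), 10.3% of the members, beside 16.2%.

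With run as a term 5 members had an unadjusted p under 0.05, beside 8.27% of all tested genes, and 0 were called, beside 0.160%. Besides INSIG1 these were ABCA1 at -0.38 ± 0.15 log2 (SE, edgeR adjusted p = 0.465), ABCG1 at 0.58 ± 0.24 log2 (SE, edgeR adjusted p = 0.513), SREBF1 at 0.19 ± 0.08 log2 (SE, edgeR adjusted p = 0.543) and SC5D at -0.20 ± 0.09 log2 (SE, edgeR adjusted p = 0.600). ABCA1 and ABCG1 had opposite signs here, and neither was called. Within runs 1, 2 and 3 ABCA1 differed by -0.04, -0.34 and -0.83 log2, and ABCG1 by 0.43, 0.57 and 0.72 log2. Without the run term their standard errors were 0.75 log2 for ABCA1 and 0.81 log2 for ABCG1, since the spread between runs then counts as error.

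Neither uptake receptor was called in any group comparison. SCARB1 had 42.1, 59.2 and 60.1 CPM in HIGHGLUC, 53.2, 65.4 and 55.5 CPM in LOWAA and 52.0, 65.5 and 60.7 CPM in control libraries, and the groups overlapped. It differed by -0.15 ± 0.13 log2 in HIGHGLUC and by -0.05 ± 0.13 log2 in LOWAA relative to control (SE, edgeR adjusted p = 1.00 in both). LRP1 had 2220, 1673 and 2345 CPM in HIGHGLUC, 1863, 1910 and 2135 CPM in LOWAA and 1890, 1934 and 2164 CPM in control libraries, and the groups overlapped. It differed by 0.06 ± 0.13 log2 in HIGHGLUC and -0.02 ± 0.13 log2 in LOWAA (SE, edgeR adjusted p = 1.00 in both).

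**Figure D3:**
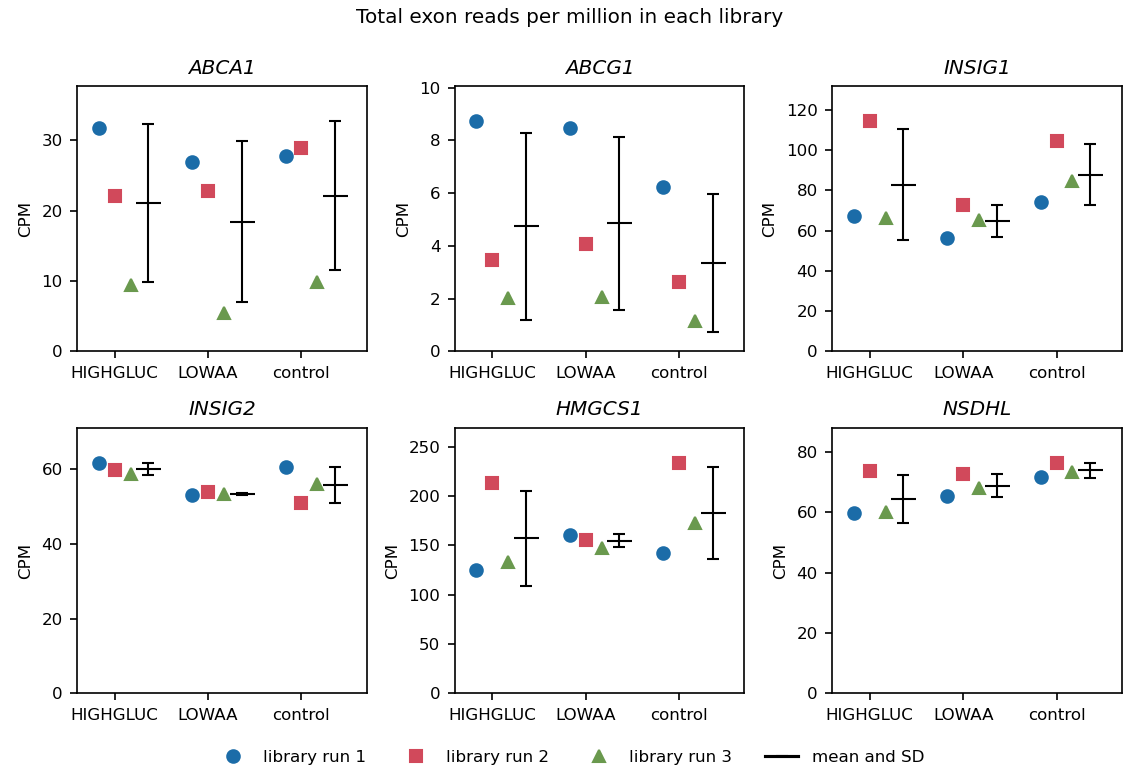
Total exon reads scaled to library size (CPM) of 6 genes in the HIGHGLUC, LOWAA and control libraries, with symbols for library run and, beside each group, its mean and SD (n = 3). ABCA1 and ABCG1 are lowest in run 3 in every group, and INSIG1 is at 56.5 to 72.7 CPM in LOWAA, below all control libraries.

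HIGHGLUC and LOWAA libraries were also compared with each other. No member was called (0 of 29, edgeR's quasi-likelihood test), beside 0.00% of all tested genes, and none had an unadjusted p under 0.05, beside 3.18%. Of the members 15 of 29 were lower in HIGHGLUC, with a median of -0.00 log2, and the 18 enzymes lay between -0.13 and 0.14 log2. With 1 library left out the count ran from 9 of 29 lower (without HIGHGLUC replicate 6, median 0.03) to 20 of 29 (without LOWAA replicate 15, median -0.08). INSIG2 (chromosome 2, 70121999 to 70142602) had 61.7, 59.8 and 58.6 CPM in HIGHGLUC replicates 6, 10 and 14, against 53.0, 53.7 and 53.3 CPM in LOWAA replicates 8, 12 and 15. The groups did not overlap and each was narrow, and the difference was 0.18 ± 0.09 log2 (SE, edgeR adjusted p = 0.999). It was the only member higher in HIGHGLUC without overlap, beside 4.43% of all tested genes, and 0 were lower without overlap, beside 3.87%.

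INSIG1 was 0.36 ± 0.21 log2 higher in HIGHGLUC than in LOWAA (SE, edgeR adjusted p = 0.999), by 0.26 log2 in run 1, 0.67 in run 2 and 0.02 in run 3. The groups overlapped, since HIGHGLUC replicates 6 and 14, at 67.4 and 66.3 CPM, lay below LOWAA replicate 12. ACAT2, the cytosolic thiolase that opens the pathway, differed by -0.12 ± 0.10 log2 (SE, edgeR adjusted p = 0.999), and SREBF2 by -0.13 ± 0.12 log2 (SE, edgeR adjusted p = 0.999). In all 3 runs 3 members were higher in HIGHGLUC (SC5D, INSIG1 and INSIG2), 10.3% of the members, beside 14.2% of all tested genes, and 0 were lower, beside 14.3%. With run as a term 2 members had an unadjusted p under 0.05, beside 8.08% of all tested genes: INSIG1 at 0.33 ± 0.10 log2 (SE, edgeR adjusted p = 0.290) and INSIG2 at 0.18 ± 0.08 log2 (SE, edgeR adjusted p = 0.615). Neither was called, beside 0.144% of all tested genes. A test of any difference among the 3 groups gave 0 members called and 0 at an unadjusted p under 0.05, beside 2.96% of all tested genes.

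**Figure D4:**
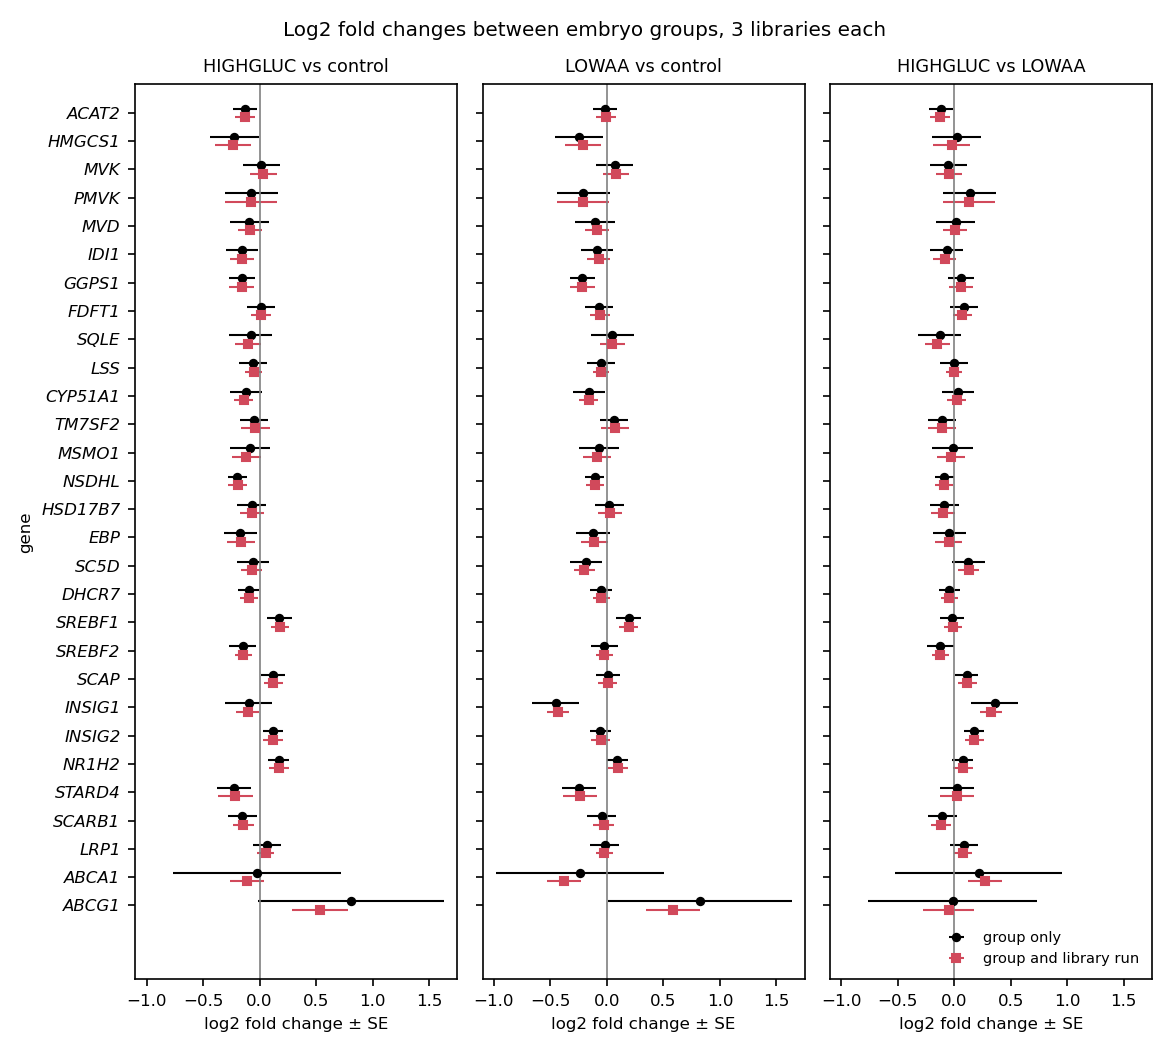
Log2 fold change with its SE for each of the 29 genes in HIGHGLUC against control, LOWAA against control and HIGHGLUC against LOWAA (3 libraries each), without (black circles) and with (red squares) library run in the model. The SE of ABCA1 in LOWAA against control is 0.75 without run and 0.15 with it, and INSIG1 lies at -0.45 and -0.43 in the same comparison.

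Intron reads gave a second readout of the same genes, in which unspliced RNA and genomic DNA cannot be told apart. Of the 29 members 25 averaged at least 10 intron reads a library, and SC5D stood out, with intron reads at 61.6% of its reads against 0.984 to 23.6% in the others. No member was called from intron reads in any comparison. At an unadjusted p under 0.05 there were 2 in HIGHGLUC against control, beside 3.24% of all genes tested for introns: IDI1, the isomerase of isopentenyl diphosphate, at 0.67 ± 0.25 log2 (SE, edgeR adjusted p = 1.00) and SREBF2 at -0.44 ± 0.20 log2 (SE, edgeR adjusted p = 1.00). IDI1 had the other sign in exon reads, at -0.16 log2. In LOWAA against control SREBF1 was at 0.60 ± 0.27 log2 (SE, edgeR adjusted p = 0.680), with the sign of its exon reads, beside 6.87% of genes, and in HIGHGLUC against LOWAA STARD4 was at -0.76 ± 0.33 log2 (SE, edgeR adjusted p = 0.625), beside 7.69%.

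Other genes of the same biology were looked at as 2 lists. The first held 38 further genes of cholesterol metabolism, of which 36 were in the table and 33 were tested, and the second held 15 fatty acid genes under SREBF1, of which 13 were tested. No gene of either list was called in any group comparison. At an unadjusted p under 0.05 there was 1 of 33 in HIGHGLUC against control, MBTPS1, which encodes the protease that makes the first cut in SREBP. MBTPS1 had 151, 139 and 152 CPM in HIGHGLUC against 123, 111 and 133 CPM in control libraries, without overlap, and differed by 0.27 ± 0.09 log2 (SE, edgeR adjusted p = 1.00). There was also 1 of 33 in HIGHGLUC against LOWAA, ABCA2, an intracellular lipid transporter, with 4.43, 4.66 and 6.93 CPM in HIGHGLUC against 9.23, 7.74 and 7.89 CPM in LOWAA libraries and a difference of -0.64 ± 0.22 log2 (SE, edgeR adjusted p = 0.999). In this fit, without library run, none of the 33 in LOWAA against control and none of the 13 fatty acid genes in any comparison had an unadjusted p under 0.05. With run as a term the numbers were 3, 4 and 5 of the 33 in HIGHGLUC against control, LOWAA against control and HIGHGLUC against LOWAA, and 0, 0 and 1 of the 13, beside the 6.66%, 8.27% and 8.08% of all tested genes given above. The 4 in LOWAA against control were ABCA2 at 0.45, ABCA7 at 0.73, VLDLR at -0.23 and ERLIN1 at -0.17 log2, and the fatty acid gene was FADS1, a desaturase, at -0.23 log2 in HIGHGLUC against LOWAA. None was called, with edgeR adjusted p-values of at least 0.258 in either list.

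Between library runs 11 of the 33 and 3 of the 13 were called, beside the 10.2% of all tested genes given above. They did not share a direction: of the 11, relative to run 1, 4 were higher and 7 lower in run 2, and 5 were higher and 6 lower in run 3. The gene with the smallest p of each list, chosen after the values were seen, is given here. PLTP, the phospholipid transfer protein, differed by -1.40 log2 in run 2 and -0.47 log2 in run 3 relative to run 1 (edgeR adjusted p = 1.07e-05). FASN, fatty acid synthase, differed by 0.55 and 0.03 log2 (edgeR adjusted p = 6.94e-05). The liver X receptor genes are added here and were not chosen by p. NR1H3, which encodes liver X receptor alpha, differed by 0.04 and -0.20 log2 and was not called (edgeR adjusted p = 0.436). NR1H2 differed by 0.11 and 0.09 log2 and was not called either (edgeR adjusted p = 0.660). Their part in the run differences of ABCA1 and ABCG1 was not tested.

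The authors' deposited table holds their own group comparisons, made with Baggerley's test of weighted proportions. In the authors' deposited table no member had an FDR-corrected p under 0.05 in any comparison, where 11, 77 and 44 genes of the whole table did for HIGHGLUC against control, LOWAA against control and LOWAA against HIGHGLUC. At the authors' deposited uncorrected p under 0.05 there were 3 members for HIGHGLUC against control, beside 3.31% of the table: NSDHL with a fold change of -1.14, SREBF1 with 1.14 and NR1H2 with 1.13. The authors' deposited values for LOWAA against control gave 3 members, beside 4.41% of the table: INSIG1 with a fold change of -1.35, GGPS1 with -1.17 and NSDHL with -1.07. For LOWAA against HIGHGLUC, the reverse of the direction used above, the authors' deposited table gave 1 member, INSIG2 with a fold change of -1.12, beside 3.71% of the table. A negative fold change there means lower in the group named first. These shares are over all 24596 genes of the table, not over the 11839 that passed the filter on low counts. All 29 members passed that filter, so the members and these shares are not like for like.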

How the data were processed

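Total RNA of 9 BEEC cultures was sequenced as 50-base single reads with the TruSeq RNA kit, per the labels' protocols. The submitters' processing notes name Bowtie2, HTSeq 0.5.4p2 and build UMD3.1, without their roles. The authors deposited one table of 24596 genes with read counts (total exon, unique exon, intron), RPKM values, normalized expression values, signed weighted-proportions fold changes given as a score, and p-values with FDR-corrected p-values, per the file headers. Another 123 columns of per-library values were not used. RPKM was recomputed from the counts as total exon reads divided by exon length and by the library's exon and intron reads.

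From the total exon read counts, CPM was computed per library, and edgeR 4.0.16 (R 4.3.3; TMM, filterByExpr with a minimum count of 10, robust quasi-likelihood fit, all 9 libraries, group only) tested 11839 genes with Benjamini-Hochberg adjustment over all of them at 0.05. A fold change is the first group named over the second. Library run was tested beside group with the 2 run terms together. The counting's use of strand is not given in the sources used here. ACAT2 overlaps TCP1 in the table's coordinates, so their reads may not be separable; no other member overlaps a gene that has reads.

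The labels state no pairing. The correlation of deviations from the group means was over 0.1 in 7 of 9 same-run pairs with total exon reads (0.02 to 0.61, against -0.70 to 0.42 in the 18 other pairs) and in 9 of 9 with unique exon reads (0.20 to 0.45, against -0.37 to 0.03). Since 2 pairs with total exon reads, the counts tested, fell short, the main fit has no run term, although the unique reads speak for one; the fit with run is given beside it. The biological coefficient of variation was 0.171 without and 0.107 with run. Precision is limited by 3 libraries a group and by depths of 2887097 to 13969325 reads; floors cover counting error only.

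The 30 members and the gene lists were chosen with earlier results of these data known. Full statistics are given per comparison for members at an unadjusted p under 0.05, or the 4 with the smallest p where there were fewer, and values per library also for HMGCS1, SQLE, INSIG1, SREBF1, SREBF2, SCARB1, LRP1 and ABCA1. Alternatives were unique exon reads, run as a term, both, DESeq2 size factors, no scaling, no count filter, DESeq2 1.42.0, limma-voom (limma 3.58.1), only the groups compared, and each library left out. The fitting steps were tested on simulated counts. Promoter motifs were not searched, and no sequence is shown, because no sequence of these genes was used here.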

Additional observations from a re-analysis of the deposited data

How the results depend on the processing

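In the group comparisons 0 members were called under the main settings and under every alternative run except one: with unique exon reads and library run as a replicate block, 1 member, INSIG1, was called in LOWAA against control. The counts at an unadjusted p under 0.05 moved more. For HIGHGLUC against control the count was 1, and it was 3 with library run as a block, 3 with that block and unique exon reads, and 0 with unique exon reads, no scaling, DESeq2 or only the 2 groups; leaving out 1 library gave 0 to 8. For LOWAA against control it was 0, and 5 with the block, 5 with the block and unique exon reads, and 1 with DESeq2, limma-voom or only the 2 groups; leaving out 1 library gave 0 to 1. For HIGHGLUC against LOWAA it was 0, and 2 with the block, with total or unique exon reads; leaving out 1 library gave 0 to 4. Members called between library runs numbered 9, from 8 to 12 under the other tools and settings, and 5 to 10 with 1 library left out. The INSIG1 fold change in the blocked fit with unique reads, an alternative chosen after seeing the data, ranged from -0.53 to -0.32 with 1 library left out. The cause of these shifts was not tested. Where leaving out 1 library left 2 in a group or run, all groups shared 1 estimate of spread. The promoter motif search was not run. Depth limits ABCG1, with 12 to 88 reads a library, and ABCA1, with 50 to 403.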
